A study of Mus musculus with 7 samples.

Results

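The genomic surroundings of 5 genes that define the CD4+ T helper lineage were examined for binding of BRG1: Cd4, the 3 Cd3 genes Cd3g, Cd3d and Cd3e, and Zbtb7b. They were chosen by position on the mouse genome build mm9, as 3 intervals: the Cd4 interval, chr6:124800001-124850000; the Cd3 interval, chr9:44765001-44830000, which holds the 3 Cd3 genes side by side; and the Zbtb7b interval, chr3:89165001-89220000. Distinct reads were counted in 850 windows of 200 bp, 250 in the Cd4, 325 in the Cd3 and 275 in the Zbtb7b interval, out of 13194757 windows over chromosomes 1 to 19 and X. The reads came from chromatin immunoprecipitation and sequencing (ChIP-seq), in which DNA bound by a protein is pulled down with an antibody and sequenced. The antibody was J1, raised against BRG1, the ATPase of the SWI/SNF complexes that move nucleosomes.

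Of the 7 libraries, 6 were BRG1 libraries, each the only one of its group, and 1 was input DNA pooled from CD4+ T helper cells without immunoprecipitation. All cells came from Balb/C mice. Naive cells, CD4+CD62L+ and 95% pure, were taken from spleen and lymph nodes at 4 to 6 weeks of age and were the starting cells of every culture. Resting Th1 cells were cultured with 1 ng/ml IL-12 and antibody to IL-4, and resting Th2 cells with 10 ng/ml IL-4 and antibody to interferon gamma, on plates coated with antibodies to CD3 and CD28. Both were expanded in IL-2. Th17 cells were cultured with soluble antibodies to CD3 and CD28, antibodies to IL-4 and interferon gamma, and a mix of 100 ng/ml IL-6, 10 ng/ml IL-1β and 1 ng/ml TGF-β, then expanded in 10 ng/ml IL-23. They were sampled only after stimulation. Stimulation of Th1, Th2 and Th17 cells lasted 1.5 h and used 50 ng/ml PMA with 500 ng/ml ionomycin. With 1 library per group, no difference has a replicate check and no p-value is given. Every ratio compares libraries, not conditions. Each 95% interval covers counting error only and not the spread between samples of a group, which 1 library cannot give. Repeated reads were dropped for these counts, since PCR copies are not independent molecules.

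Cd4 encodes the coreceptor that binds MHC class II molecules and brings the kinase Lck to the T cell receptor; a silencer in its first intron, bound by RUNX proteins, keeps it off in cytotoxic T cells. Cd3g, Cd3d and Cd3e encode the gamma, delta and epsilon chains that pair up in the T cell receptor complex, carry its signal into the cell and are needed for the receptor to reach the surface. Zbtb7b encodes ThPOK, the zinc finger factor that commits thymocytes to the CD4 helper lineage and holds back the genes of the cytotoxic lineage. SWI/SNF complexes are known to take part in regulating Cd4 during thymocyte development. PMA and ionomycin act downstream of the receptor and so bypass the CD3 chains and CD4.

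Promoter sequences of the genes are given with counts of motif letters and GC content. The RefSeq promoter table, on build GRCm38.p6, matched 4 of the 5 genes, with 250 bases before and 50 after each start; it had no entry for Cd4 and a pair of entries for Zbtb7b, of which the upstream one is printed. The reads are on another build, so no BRG1 region was placed on these sequences. Capitals mark the E-box letters CANNTG, the motif of the E proteins that act in T cell development; the motif reads the same on both strands.
Cd3g, GRCm38.p6 chr9:44980382-44980681, minus strand: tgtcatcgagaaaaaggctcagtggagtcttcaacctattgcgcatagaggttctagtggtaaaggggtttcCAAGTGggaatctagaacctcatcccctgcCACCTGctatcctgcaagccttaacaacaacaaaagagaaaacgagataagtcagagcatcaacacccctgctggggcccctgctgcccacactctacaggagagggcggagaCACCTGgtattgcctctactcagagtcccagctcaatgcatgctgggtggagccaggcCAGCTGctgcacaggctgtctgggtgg
Cd3d, GRCm38.p6 chr9:44981536-44981835, plus strand: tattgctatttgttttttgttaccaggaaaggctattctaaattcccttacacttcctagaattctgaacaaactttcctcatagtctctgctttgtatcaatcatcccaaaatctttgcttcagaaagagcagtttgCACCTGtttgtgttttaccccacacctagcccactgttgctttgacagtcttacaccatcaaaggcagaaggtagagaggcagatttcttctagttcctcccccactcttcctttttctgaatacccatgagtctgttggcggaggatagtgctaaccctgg
Cd3e, GRCm38.p6 chr9:45009562-45009861, minus strand: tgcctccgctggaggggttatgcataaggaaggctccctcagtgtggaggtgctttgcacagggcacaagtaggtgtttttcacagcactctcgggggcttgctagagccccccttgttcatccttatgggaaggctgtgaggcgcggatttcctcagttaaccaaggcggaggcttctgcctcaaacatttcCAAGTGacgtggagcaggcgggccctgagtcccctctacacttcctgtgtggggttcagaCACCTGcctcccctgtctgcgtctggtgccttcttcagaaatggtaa
Zbtb7b, GRCm38.p6 chr3:89393329-89393628, minus strand: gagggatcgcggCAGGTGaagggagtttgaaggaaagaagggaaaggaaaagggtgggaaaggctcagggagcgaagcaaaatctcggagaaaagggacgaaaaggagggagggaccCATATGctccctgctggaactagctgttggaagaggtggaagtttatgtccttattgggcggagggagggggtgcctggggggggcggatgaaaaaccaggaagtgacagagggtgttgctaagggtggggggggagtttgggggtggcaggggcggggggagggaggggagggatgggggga
Cd3g had 4 E-boxes, Cd3e and this Zbtb7b promoter 2 each, and Cd3d 1. At least 1 such match is found in 72.3% of all 32851 promoters of the table. None of the 4 held the TATA letters TATAAA on either strand, which 13.6% of all promoters hold. The Zbtb7b promoter had 3 GC-boxes (GGGCGG, either strand), the Cd3g promoter 1, and those of Cd3d and Cd3e none, against a share of 35.7% of all promoters with at least 1. GC content was lowest at Cd3d, 42.3%, and 54.0%, 56.7% and 59.7% at Cd3g, Cd3e and Zbtb7b, against a median of 52.7%. The second Zbtb7b entry was the only 1 of the 5 promoters with the RUNX letters TGTGGT (either strand), which 16.8% of all promoters hold.

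In the GRCm38 gene table, Cd4 lies between Gpr162 and Lag3, the Cd3 genes between Ube4a and Mpzl2, and Zbtb7b between Dcst2 and Lenep. Cd4 is 23555 bases long there and Zbtb7b 16030, so each interval holds flanking DNA as well. Which gene a BRG1 region within an interval belongs to is not given here.

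Distinct reads, with 1 read kept per start and strand, numbered 1340208 to 2071800 in the naive and resting libraries, 3917492 to 7892944 in the stimulated ones and 3531867 in the input. Repeated reads made up 28.5% to 41.4% of the naive and resting libraries and 10.2% to 11.8% of the stimulated ones. Depth and repeats thus moved with the state of the cells, and their part in the differences between states cannot be told apart from it.

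Scaled to depth, all 3 intervals held more reads in every BRG1 library than in the input. Values are RPM, reads per 1000000 distinct reads, over the whole interval. At Cd4, the naive library had 72.4 RPM, resting Th1 72.5, resting Th2 74.6, stimulated Th2 94.6, stimulated Th1 113 and stimulated Th17 116, against 36.2 in the input. The 3 unstimulated libraries did not differ beyond counting error, and the 3 stimulated ones lay above them. At Cd3, the naive library was lowest with 111 RPM, and the other 5 were close together: 145 in stimulated Th2, 148 in stimulated Th17, 152 in resting Th2, 157 in resting Th1 and 158 in stimulated Th1, against 56.3 in the input. The intervals of those 5 overlapped. At Zbtb7b, naive had 77.7 RPM, resting Th1 126, resting Th2 128, stimulated Th17 157, stimulated Th2 159 and stimulated Th1 211, against 45.6 in the input. Here naive stood below both resting libraries and stimulated Th1 above all others.

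**Figure D1:**
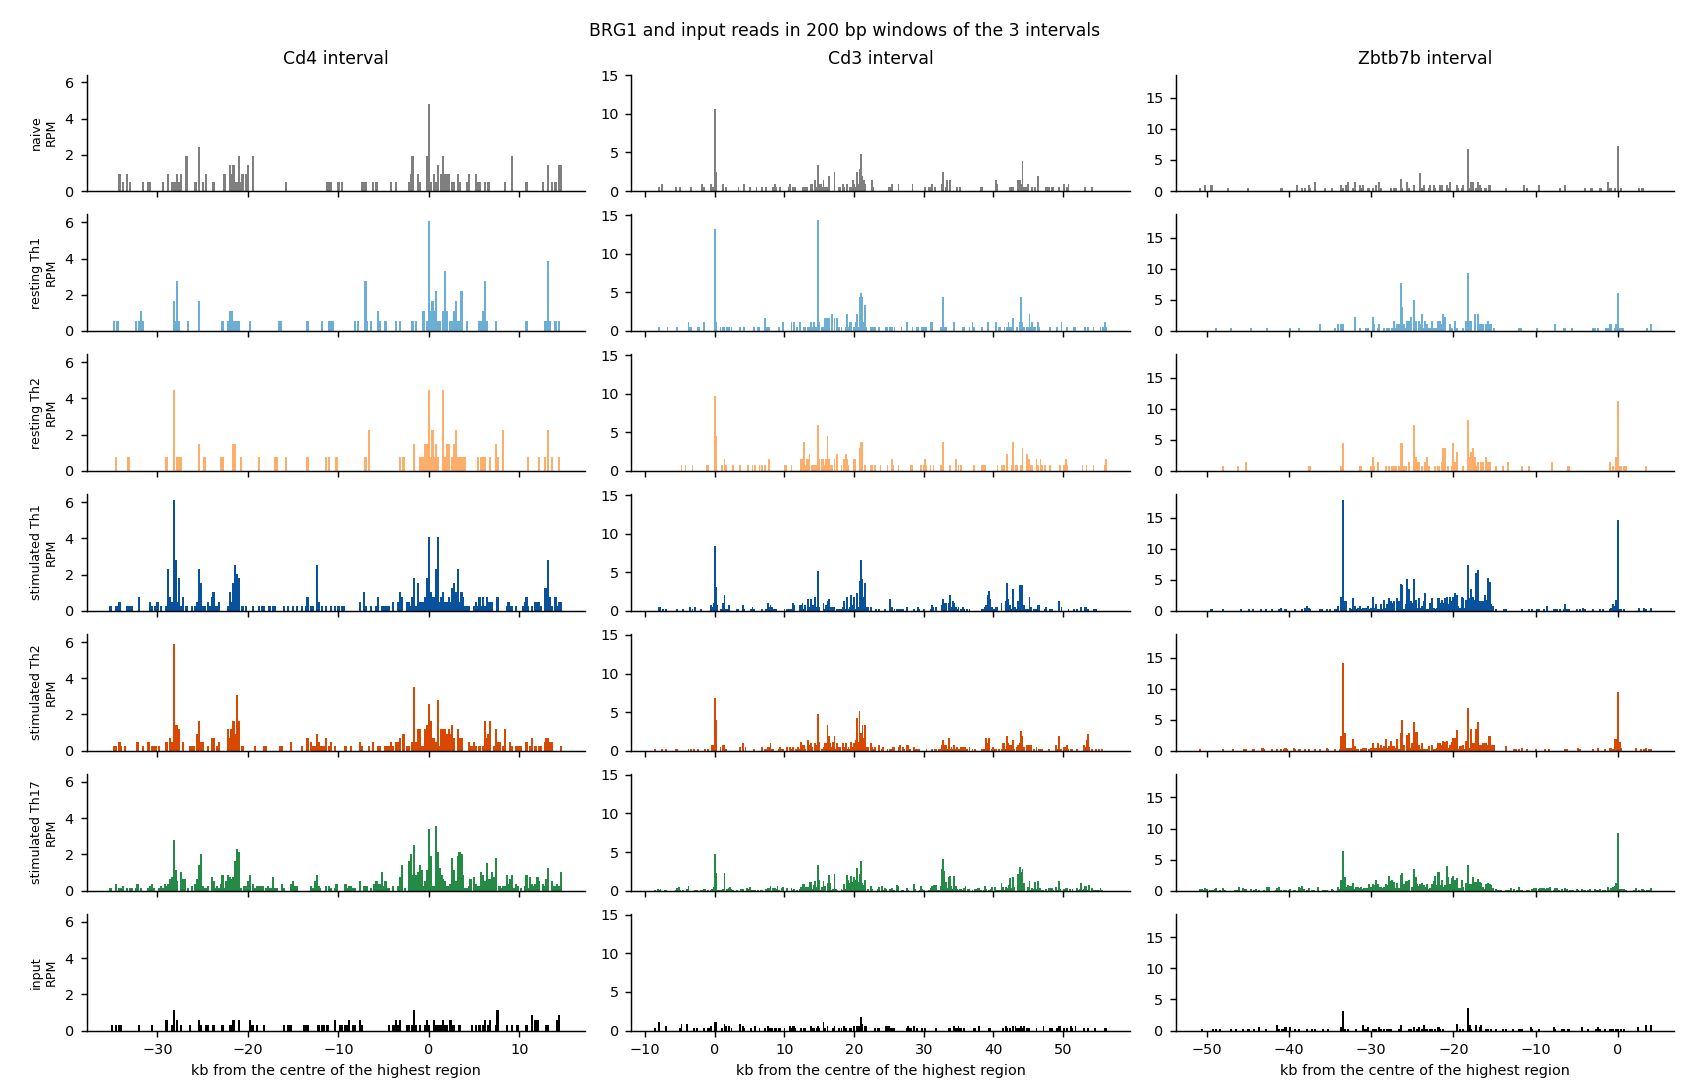
RPM in each 200 bp window (vertical axis) of the Cd4, Cd3 and Zbtb7b intervals, for 6 BRG1 libraries and the input (rows), by distance in kb from the highest region of that interval (horizontal axis; the vertical scale is shared within a column). Narrow spikes stand above the input in each interval, and in the Zbtb7b interval a second cluster of spikes lies below the highest region.

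Relative to the input, the excess was 1.70-fold to 4.63-fold. The ratio of Zbtb7b reads to input was 4.63 in stimulated Th1 (95% interval 3.90 to 5.51), 3.49 in Th2 and 3.44 in Th17 after stimulation, 2.82 in resting Th2, 2.75 in resting Th1 and 1.70 in naive (1.36 to 2.13). At Cd3 it ran from 1.98 in naive (1.63 to 2.40) to 2.81 in stimulated Th1 (2.39 to 3.31), and at Cd4 from 2.00 in naive (1.57 to 2.55) to 3.19 in stimulated Th17 (2.65 to 3.87). These values stood high among all stretches of the genome of the same length with at least 30 input reads, whose median ratio lay between 0.566 and 0.979. Of 44219 such stretches, 0.0701% reached the Zbtb7b value in stimulated Th1 and 3.66% that in naive. For Cd4, 0.859% of 47824 stretches were at least as high in stimulated Th17 and 3.78% in resting Th2, the extremes over the libraries. For Cd3 the extremes were 0.324% of 37940 stretches in resting Th1 and 1.97% in stimulated Th17.

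**Figure D2:**
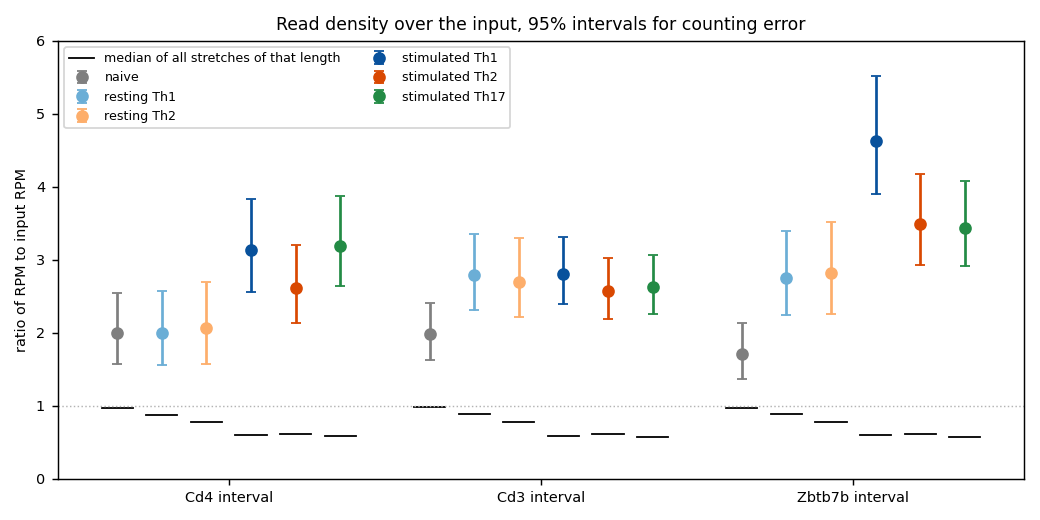
Ratio of RPM to input RPM over each whole interval (vertical axis) in the 6 BRG1 libraries (points, with 95% intervals for counting error); black bars are the median over all genome stretches of the same length and the dotted line marks 1. Every point lies above its bar, from 1.70 at Zbtb7b in naive to 4.63 at Zbtb7b in stimulated Th1.

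In every library, most reads of each interval lay outside the called regions described below. Those regions held from 10.2% of the reads (Cd4, stimulated Th17) to 41.2% (Zbtb7b, stimulated Th1). A window was called where its reads, at a depth of 1340208 for each library, passed a Poisson tail of 1e-05 against the input around it. Of the 850 windows, 20 (2.35%) were called in stimulated Th1, where 0.176% of the 7927248 windows with a read in any library were called. In stimulated Th2 it was 9 (1.06%) against 0.159% genome-wide, and in stimulated Th17 also 9, against 0.0838%. Resting Th2 had 12 (1.41%) against 0.122%, resting Th1 9 against 0.0997% and naive 5 (0.588%) against 0.0415%. Called windows were thus more frequent here than over the genome in all 6 libraries.

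Joined over single gaps and over libraries, the called windows made 28 regions, 6 in the Cd4, 10 in the Cd3 and 12 in the Zbtb7b interval, of 26374 in the genome. They are named by interval and, in order of position, by letter. Of the 28, 12 were called in 2 or more libraries, and 16 (57.1%) in a single one, as were 57.8% of all regions. Another random draw of the same number of reads found 11 of the 12 again, the exception being Cd3-i, but only 5 of the 16. Resting Th2 set that depth and was used whole in both draws, so the regions called in it recurred by construction. Among them were Cd4-e, Cd3-c and Zbtb7b-h of the 5, and all but Cd4-a, Zbtb7b-a and Zbtb7b-j of the 11. Single-library regions are therefore given below as values and not as binding sites. With all distinct reads each of the 28 was found, but those reads include the drawn ones, so this is no independent check. Regions called only in stimulated libraries numbered 16 (57.1%, against 51.4% of all regions), and those called only in naive or resting ones 4 (14.3%, against 24.9%).

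In the Cd4 interval, Cd4-c (chr6:124835201-124835400) was the region shared across states. The unstimulated libraries held 10 (naive), 11 (Th1) and 6 (Th2) reads and the stimulated ones 16 (Th1), 11 (Th2) and 27 (Th17), against 1 in the input. It was called in every library except stimulated Th2. In RPM the unstimulated libraries had 4.48 to 6.08 and the stimulated ones 2.58 to 4.08, so the groups did not overlap, but no pair passed the rule for a difference given below. The ratio to input was 9.12 to 21.5, with intervals whose lower ends were 1.32 to 3.12 because the input held a single read.

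Cd4-a (chr6:124807001-124807200) was highest in stimulated Th1 and Th2. The unstimulated libraries had 1 (naive), 3 (Th1) and 6 (Th2) reads and the stimulated ones 24 (Th1), 25 (Th2) and 22 (Th17), against 4 in the input. In RPM and the same order that is 0.483, 1.66, 4.48, 6.13, 5.87 and 2.79, so resting Th2 lay above stimulated Th17 and the states overlapped. It was called in stimulated Th1 and Th2 only. The other 4 Cd4 regions were each called in 1 library: Cd4-b, Cd4-d and Cd4-f in stimulated Th1, with 9 to 16 reads there and 0 or 1 in resting Th1, and Cd4-e in resting Th2, with 6 reads there and 2 in resting Th1.

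In the Cd3 interval, Cd3-a (chr9:44773601-44773800) was the highest region and ranked 1720 of 26374 by the sum of RPM over the 6 BRG1 libraries. The unstimulated libraries had 22 (naive), 24 (Th1) and 13 (Th2) reads and the stimulated ones 33 (Th1), 29 (Th2) and 37 (Th17), against 4 in the input. As RPM in that order, these were 10.6, 13.3, 9.70, 8.42, 6.80 and 4.69: each unstimulated library lay above each stimulated one. That order rests on dropping repeats: with all reads kept, the values were 11.0 (naive), 20.2 (Th1) and 8.04 (Th2) before stimulation and 11.8 (Th1), 10.8 (Th2) and 9.56 (Th17) after it, so resting Th2 was lowest and the states overlapped. It was called in all libraries except stimulated Th17, and its ratio to input ran from 4.14 (1.49 to 16.0) in stimulated Th17 to 11.7 (4.03 to 46.5) in resting Th1.

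Cd3-b (chr9:44788401-44788600) was highest in resting Th1. That library had 26 reads, or 14.4 RPM, where naive had 7 (3.38 RPM), resting Th2 8 (5.97), stimulated Th1 20 (5.11), stimulated Th2 20 (4.69), stimulated Th17 26 (3.29) and the input 2 (0.566). Resting Th1 lay above the other 5 libraries, which ran from 3.29 to 5.97 RPM. Its ratio to resting Th2, the nearest, was 2.41 (1.06 to 6.16), short of the rule for a difference given below. It was called in resting Th1, resting Th2 and stimulated Th1. In resting Th1, 49 reads including repeats fell in it, so 46.9% were repeats, against 28.5% over that whole library. In resting Th2 it was 22 reads, 63.6% of them repeats, against 36.6% over that library. With all reads kept, resting Th1 thus had 49 of its 2529050 reads there and resting Th2 22 of its 2114866, a narrower gap.

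Cd3-f (chr9:44806201-44806600) was highest in stimulated Th17, with 54 reads there, or 6.84 RPM, in almost equal numbers on the strands (28 plus, 26 minus). The unstimulated libraries had 7 (naive), 9 (Th1) and 6 (Th2) reads, stimulated Th1 and Th2 9 each, and the input 0. Stimulated Th1 (2.30 RPM) and Th2 (2.11) were thus the lowest, below naive (3.38), resting Th2 (4.48) and resting Th1 (4.98). It was called in stimulated Th17 and both resting libraries.

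Among the remaining Cd3 regions, Cd3-i (chr9:44817601-44818000), called in naive and resting Th1, had 3.73 to 6.64 RPM in the 6 libraries and 0.849 in the input. Cd3-e (chr9:44794401-44794800), second in the interval by summed RPM, was called in stimulated Th1 only and lay at 5.95 to 10.5 RPM in the 6 libraries, but the input was also high there, at 2.27. Cd3-c, Cd3-d, Cd3-g, Cd3-h and Cd3-j were each called in 1 library, with 6 to 18 reads in the library that called them and, over all 6 libraries, from 0 to 4.48 RPM.

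In the Zbtb7b interval, Zbtb7b-l (chr3:89215801-89216000) was the only one of the 28 regions called in all 6 libraries; of all regions in the genome 1.36% were. The unstimulated libraries had 15 (naive), 11 (Th1) and 15 (Th2) reads and the stimulated ones 57 (Th1), 40 (Th2) and 73 (Th17), against 1 in the input. As RPM in that order, 7.24, 6.08, 11.2, 14.6, 9.39 and 9.25 stood against 0.283, with resting Th2 between the stimulated libraries. Its ratio to input, 21.5 to 51.4, was the highest among the regions with an input read in every library except resting Th1, where Cd3-b reached 25.4. The lower ends of its intervals were 3.12 to 8.86. Stimulated Th17 held 273 reads there before repeats were removed, 73.3% of them repeats, against 10.2% over that whole library. With all reads kept, the order turned: stimulated Th17 was highest at 31.1 RPM, then stimulated Th1 at 20.6 and Th2 at 13.7, and all 3 lay above resting Th2 (10.9), naive (7.08) and resting Th1 (5.93).

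Zbtb7b-a (chr3:89182401-89182600) held few reads before stimulation, fewest in naive and resting Th1. The unstimulated libraries had 1 (naive), 2 (Th1) and 6 (Th2) reads and the stimulated ones 70 (Th1), 60 (Th2) and 50 (Th17), with 35 plus and 35 minus reads in stimulated Th1. In RPM, 0.483, 1.11 and 4.48 in the unstimulated libraries stood against 17.9, 14.1 and 6.33 in the stimulated ones, so the states did not overlap, with resting Th2 nearest to stimulated Th17. The input had 11 reads there, or 3.11 RPM, so the ratio to input was 0.155 in naive (0.00360 to 1.07), 0.355 in resting Th1 (0.0383 to 1.63) and 1.44 in resting Th2 (0.436 to 4.24), and 5.74 (3.02 to 12.0), 4.52 (2.35 to 9.54) and 2.03 (1.05 to 4.33) in stimulated Th1, Th2 and Th17. No unstimulated library thus exceeded the input beyond counting error, and each stimulated one did.

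Zbtb7b-j (chr3:89198601-89199000) was again higher in stimulated cells, with 4 (naive), 5 (Th1) and 3 (Th2) reads before stimulation, 50 (Th1), 35 (Th2) and 26 (Th17) after it, and 3 in the input. In RPM the unstimulated libraries had 1.93 to 2.77 and the stimulated ones 3.29 to 12.8. That gap rests on dropping repeats. With all reads kept, resting Th1 had 9 of its 2529050 reads there and stimulated Th17 30 of its 8786154. Per read, resting Th1 then lay above stimulated Th17 and the states overlapped. Zbtb7b-b (chr3:89189401-89189800) was instead lowest in naive, with 5 reads or 2.41 RPM. Th1 and Th2 had 11.6 and 8.95 RPM at rest, and stimulated Th1, Th2 and Th17 had 8.42, 7.74 and 5.45. Zbtb7b-d (chr3:89191001-89191200) was lowest in naive too, with 2 reads or 0.965 RPM there and 3.55 to 7.46 RPM in the other libraries. Ratios to naive were taken for the resting libraries only.

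Zbtb7b-i (chr3:89197601-89197800) was called in 4 libraries and had 4.05 to 9.40 RPM in all 6, but the input held 13 reads there, or 3.68 RPM, so its ratio to input was 1.10 to 2.55. The lower end of the interval passed 1 in resting Th1 (1.17) and, barely, in stimulated Th1 (1.01) only. The other 6 Zbtb7b regions were called in 1 library each, with 6 to 34 distinct reads in the library that called them.

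**Figure D3:**
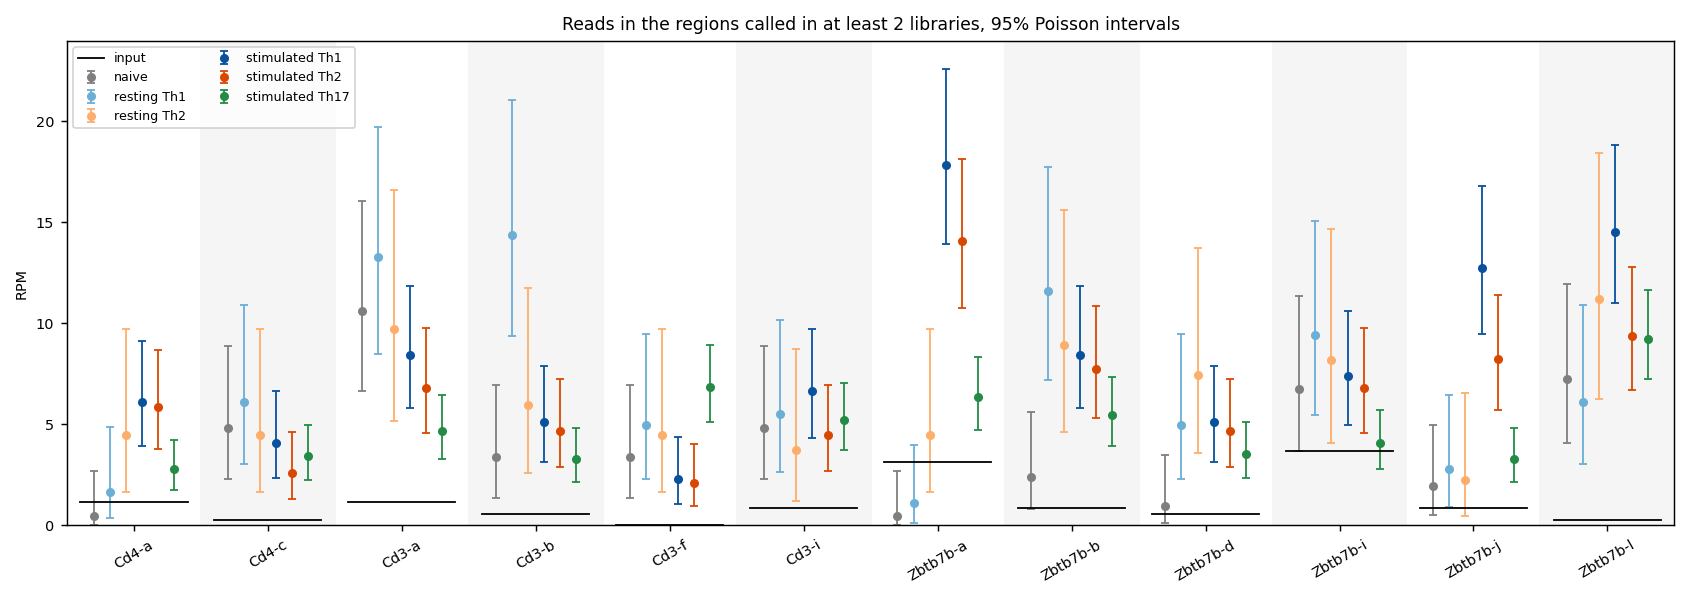
RPM (vertical axis) in each BRG1 library of the 12 regions called in at least 2 libraries, with 95% Poisson intervals for counting error; black bars give the input. Zbtb7b-a and Zbtb7b-j are high in stimulated Th1 and Th2, Cd3-a is highest in the unstimulated libraries (not with repeats kept), Cd3-b in resting Th1 and Cd3-f in stimulated Th17.

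Reads around the highest region of each interval were counted by distance from its centre. Each region was picked for its high BRG1 counts on these same reads. A high central share in the BRG1 libraries was thus favoured in advance and does not show a sharp site. Around Cd3-a, 88.9% of the resting Th1 reads within 1000 bp on each side lay in the central 200 bp (24 of 27), and 53.7% to 71.0% in the other BRG1 libraries, against 33.3% in the input (4 of 12). Around Zbtb7b-l the share was 55.0% to 78.9%, against 1 of 7 input reads. Around Cd4-c the share was lower, 24.4% to 50.0% against 1 of 7 input reads, on 20 reads each in naive and resting Th2. In stimulated Th17 the highest 50 bp step within that span lay 825 bp away from the centre of Cd4-c. It held 11 reads, and the step at 75 bp held 10.

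**Figure D4:**
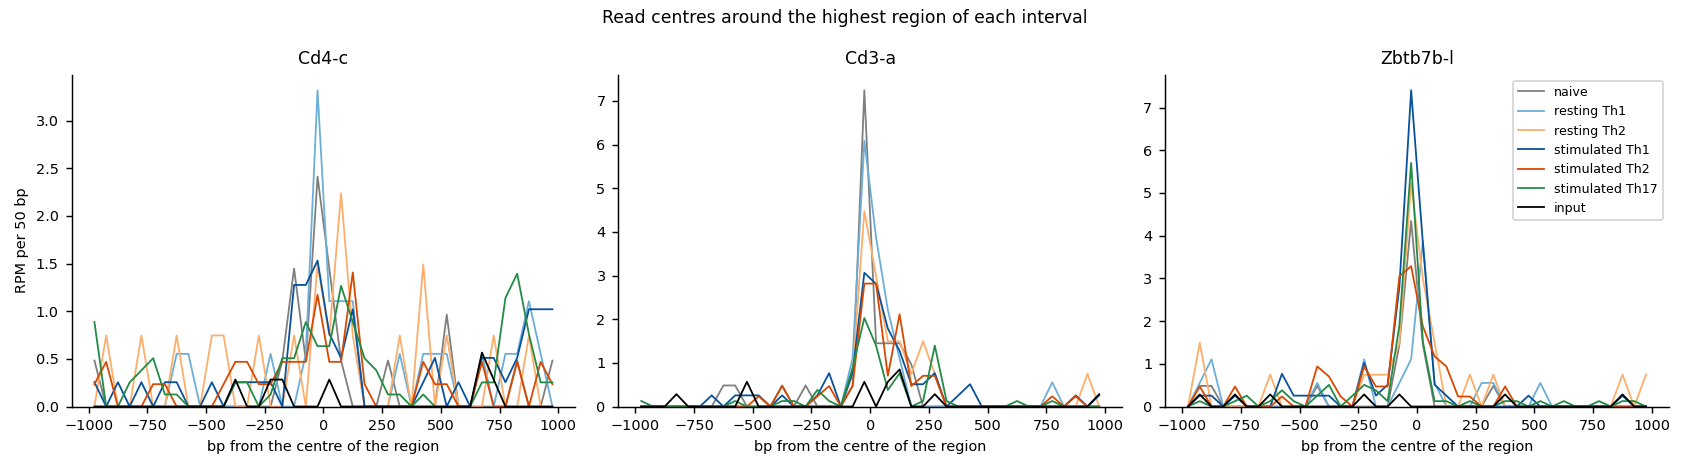
RPM per step of 50 bp (vertical axis) by distance in bp from the centre of the highest region of each interval (horizontal axis), for the 6 BRG1 libraries and the input. At Cd3-a and Zbtb7b-l the BRG1 libraries peak within 25 bp of the centre. At Cd4-c the highest step is lower in every BRG1 library. In stimulated Th17 it lies 825 bp away, with 11 reads against 10 at 75 bp.

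In the Zbtb7b interval, reads also lay between the called regions. The stretch from Zbtb7b-a to Zbtb7b-k, chosen after its values were seen, spans 17400 bp, or 31.6% of the interval, and holds 73 windows outside its 11 regions. Those windows held 65 (naive), 101 (Th1) and 70 (Th2) reads before stimulation and 335 (Th1), 281 (Th2) and 579 (Th17) after it, against 50 in the input. As a ratio to input that is 2.22 in naive (1.51 to 3.27), 3.95 in resting Th1 (2.78 to 5.65), 3.69 in resting Th2 (2.53 to 5.41), 6.04 in stimulated Th1 (4.48 to 8.30), 4.66 in Th2 (3.44 to 6.43) and 5.18 in Th17 (3.88 to 7.06) after stimulation. Naive was lowest and its interval overlapped those of the resting libraries but none of the stimulated ones.

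Differences between libraries were called where a region held at least 10 reads over both libraries, their RPM differed at least 3-fold and the interval of the ratio left out 1. The regions were found on the same reads that were then counted. The question of differentiation is addressed by resting Th1 and resting Th2 against naive, which share the naive library. Resting Th1 was higher in 3 of the 11 regions tested, where 15.9% of the genome's regions were, and lower in none (0.892% of all). Those 3 were Cd3-b, 4.26-fold (1.80 to 11.6), Zbtb7b-b, 4.81-fold (1.77 to 16.3), and Zbtb7b-d, 5.16-fold (1.07 to 49.0). Resting Th2 was higher in 2 of 11 (20.6% of all) and lower in none (0.998%): Zbtb7b-b, 3.71-fold (1.22 to 13.4), and Zbtb7b-d, 7.73-fold (1.65 to 72.6). No region of the Cd4 interval was among them, with 1 region tested against resting Th1 and 2 against resting Th2. These counts are near the genome's, and division by the median ratio of all regions, 1.59 for Th1 and 1.69 for Th2, gave counts of 1 (Zbtb7b-b, at 3.03) and 0. Over whole intervals, the Zbtb7b ratio was 1.62 in resting Th1 (1.31 to 1.99) and 1.65 in resting Th2 (1.32 to 2.06), against a median of 0.922 and 0.814 over all stretches, with 3.73% and 6.47% of them at least as high. The Cd3 ratios were 1.41 (1.18 to 1.68) and 1.37 (1.13 to 1.66), and those of Cd4 1.00 (0.786 to 1.27) and 1.03 (0.792 to 1.34).

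Activation is addressed by stimulated against resting cells of the same subset. In Th1, 6 of 22 regions were higher (24.3% of all regions) and none lower (4.59%). Zbtb7b-a was 16.2-fold higher (4.31 to 136), Cd4-d 7.38-fold (1.15 to 310), Zbtb7b-j 4.62-fold (1.85 to 14.8) and Cd4-a 3.69-fold (1.12 to 19.2). Cd4-b and Zbtb7b-k had 10 reads after stimulation and 0 at rest, which the rule counts because a ratio to 0 has no upper limit. Against a floor of 3 counts the fold is at least 1.54, and the exact interval starts at 1.03, so 3-fold is shown for neither, and 4 of the 22 regions have a measured ratio past it. In Th2, 3 of 20 regions were higher (14.3% of all) and none lower (4.95%): Zbtb7b-j, 3.67-fold (1.16 to 18.6), Zbtb7b-a, 3.14-fold (1.36 to 8.91), and Cd3-d, with 18 reads against 0, at least 1.89-fold by the same floor with an exact interval from 1.38, so 2 of the 20 have a measured ratio past 3. Zbtb7b-a and Zbtb7b-j passed the rule in both subsets, in pairs without a shared library, but in Th2 not relative to the median region. Like every region named here as higher, both were called as regions in stimulated libraries only. That choice favoured a higher stimulated value, so passing in both subsets is not an independent check. The median ratio of all regions was 1.51 in Th1 and 1.26 in Th2. Divided by it, Zbtb7b-a was at 10.7 and Zbtb7b-j at 3.06 in Th1, the 2 regions still called higher there, beside 2 then called lower. In Th2 they were at 2.50 and 2.92, below 3-fold, and the 1 region still called higher was Cd3-d, beside 1 called lower. The undivided counts lay near the shares over the genome.

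As whole intervals, Zbtb7b and Cd4 were higher after stimulation in both subsets, while the Cd3 ratio had an interval that held 1. The Zbtb7b ratio was 1.68 in Th1 (1.45 to 1.95) and 1.24 in Th2 (1.05 to 1.47). That of Cd4 was 1.56 (1.28 to 1.92) and 1.27 (1.02 to 1.59), and that of Cd3 1.01 (0.874 to 1.16) and 0.950 (0.809 to 1.12). The median stretch had ratios of 0.738 to 0.750 in Th1 and 0.875 to 0.886 in Th2. Among stretches, 6.62% were at least as high as Zbtb7b in Th1, 9.00% as Cd4 and 29.7% as Cd3, and in Th2 the shares were 20.2%, 19.6% and 41.8%.

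**Figure D5:**
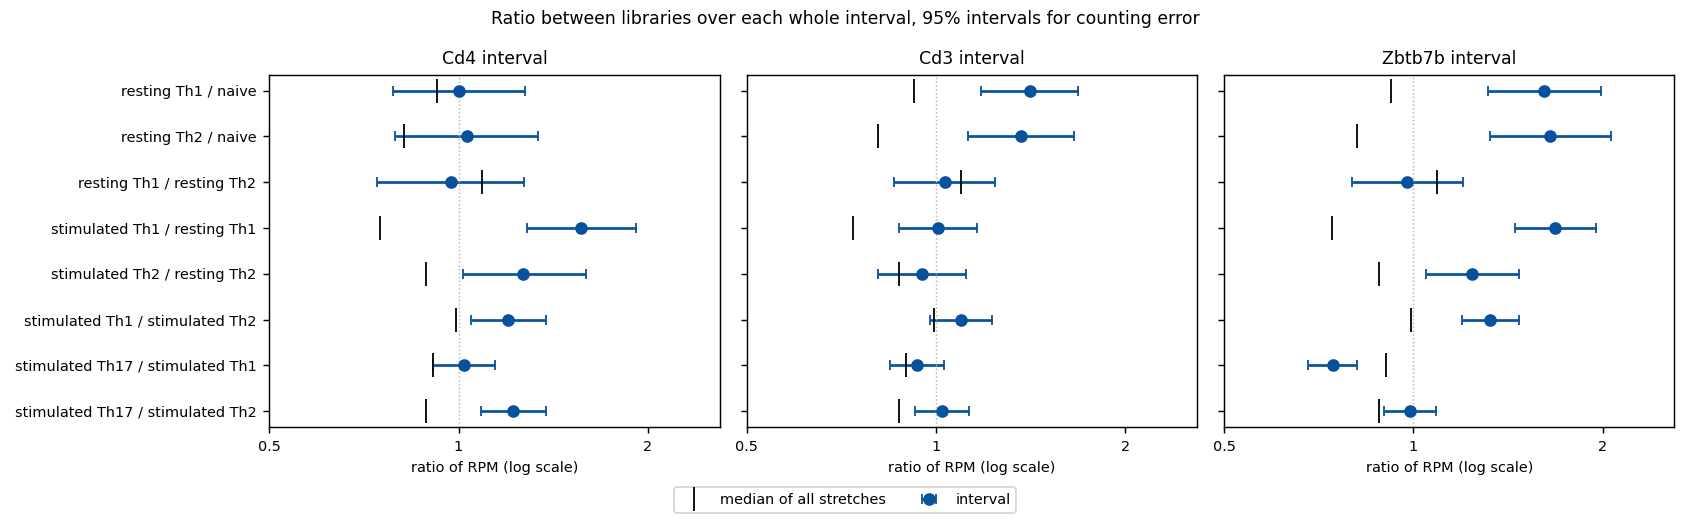
Ratio of RPM between libraries over each whole interval (horizontal axis, log scale) for the 8 pairs (rows), with 95% intervals for counting error (points and bars); black ticks are the median over all genome stretches of the same length and the dotted line marks 1. The Cd3 ratios for stimulation and subset lie near 1, while those of stimulated to resting Th1 are 1.56 at Cd4 and 1.68 at Zbtb7b.

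Between subsets, few regions differed. Resting Th1 and Th2 had no called difference in the 10 regions tested, where 2.16% of all regions were higher in Th1 and 4.95% lower. The median ratio of all regions was 0.900. Whole-interval ratios were 0.971 (0.743 to 1.27) at Cd4, 1.03 (0.859 to 1.24) at Cd3 and 0.978 (0.799 to 1.20) at Zbtb7b. After stimulation, with a median ratio of all regions of 1.09, 1 of 26 regions was higher in Th1 than in Th2 (2.46% of all) and 1 lower (3.67%). These were Zbtb7b-e, with 11 reads against 1, and Cd3-j, with 1 against 9, both single-library regions that the second draw did not find. All 9 stimulated Th2 reads of Cd3-j lay on the plus strand. Zbtb7b-e had 4 plus and 7 minus reads in stimulated Th1. Over whole intervals stimulated Th1 exceeded stimulated Th2 by 1.33-fold at Zbtb7b (1.20 to 1.47) and 1.20-fold at Cd4 (1.05 to 1.38), and 1.09-fold at Cd3 (0.978 to 1.23), where the interval held 1.

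Stimulated Th17 was compared with stimulated Th1 and with stimulated Th2, pairs that share the Th17 library. Against Th1, none of 26 regions was higher (3.41% of all) and 3 were lower (16.4%): Zbtb7b-j, 3.87-fold lower (2.37 to 6.48; a ratio of 0.446 once divided by the median ratio, which is no longer called), with the single-library regions Zbtb7b-e (5 reads against 11) and Zbtb7b-k (2 against 10). Cd3-f, at 2.98-fold over Th1 (1.46 to 6.86), fell just short of the rule, while the median ratio of all regions was 0.579. Against Th2, 2 of 26 were higher (3.24%) and 2 lower (17.3%). Cd3-f was 3.24-fold higher in Th17 (1.59 to 7.46), and next to it Cd3-g had 15 reads against 1. Cd3-c (8 against 14) and Cd3-j (1 against 9) were lower. Their stimulated Th2 reads were uneven by strand, 2 plus and 12 minus at Cd3-c and all plus at Cd3-j. The members' median ratio of Th17 to Th1 was 0.640 and to Th2 0.760, and over all regions it was 0.579 and 0.623. Across whole intervals the Th17 to Th1 ratio was 0.744 (0.681 to 0.813) at Zbtb7b, 0.933 (0.846 to 1.03) at Cd3 and 1.02 (0.909 to 1.14) at Cd4, and the Th17 to Th2 ratio was 0.986 (0.897 to 1.08), 1.02 (0.926 to 1.13) and 1.22 (1.09 to 1.38).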

How the data were processed

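BRG1 ChIP-seq reads of 7 mouse libraries were analysed. The authors deposited aligned reads as 1 list for each library, with every read 34 bases long and given by its chromosome, start, end and strand and no score or signal. Per the submitters' processing notes the build was mm9; the aligner was not given in the sources used here. Samples were grouped by the labels.

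From each list, repeats of a start and strand were dropped, as was chromosome Y, and the 5′ end was moved by 75 bp. Distinct reads were counted in 200 bp windows. Windows were called with the BRG1 libraries thinned to 1340208 reads, where their count had a Poisson tail under 1e-05 given whichever was higher, the mean over the genome or the scaled input within 1, 5 or 10 kb, and were joined over gaps of 1 window. Union regions were counted with all distinct reads; ratios carry exact conditional (Clopper-Pearson) 95% intervals. RPM levels carry exact Poisson intervals. Tools were numpy 2.4.6, pandas 2.3.3 and scipy 1.17.1. Scripts were tested on simulated data.

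Regions named in the text are the 5 of each interval with the highest summed RPM and all regions past the 3-fold rule in any of 8 comparisons; Cd3-h is named outside that rule. The second random draw, RPM of regions with all reads kept, the split into regions called in 1 or in more libraries and the stretch from Zbtb7b-a to Zbtb7b-k were chosen after the data were seen. The intervals were chosen with earlier results of these data known. Genes other than the 5 were to be counted only with an mm9 annotation, which was not used here.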

Additional observations from a re-analysis of the deposited data

How the results depend on the processing

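All 18 ratios of an interval to the input stayed within their interval when all reads were kept at repeated positions and when libraries were scaled by their reads outside called regions. With all reads kept, the 23 region calls made in the 8 pairs were all made again. With distinct reads, 10 of the 23 held after division by the median ratio. Ratios of regions to an input of few reads have intervals too wide to show stability: Zbtb7b-l in stimulated Th17 moved from 32.7 to 118 over 1 input read. With all reads kept, an alternative added after the data were seen, 124 RPM values of named regions stayed within their Poisson interval and 14 left it. Counts of regions did not hold as well. With all reads kept, 9 regions were called in the 3 intervals in naive, 16 in resting Th1 and 18 each in resting Th2, stimulated Th2 and stimulated Th17. All distinct reads without thinning gave 8 in naive and, after stimulation, 30 (Th1), 24 (Th2) and 39 (Th17). A tail of 1e-07 left 1 in naive, 4 in resting Th2, 9 in stimulated Th1 and 2 in stimulated Th17, and without the shift naive had 2. A second random draw, added after the data were seen, gave 10 in stimulated Th1 and 4 in stimulated Th17. Without the shift, 127 RPM values of named regions stayed within their Poisson interval and 11 left it.

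For the 3-fold rule with all reads kept, 7 regions were higher in resting Th2 than in naive, 3 lower in resting Th1 than in resting Th2, 5 higher and 1 lower in stimulated than in resting Th2, 2 higher and 2 lower in stimulated Th1 than in stimulated Th2, and 2 higher in stimulated Th17 than in stimulated Th1. At equal depth, 1 was higher in resting Th1 than in naive, 1 lower in resting Th1 than in resting Th2, 1 higher in stimulated than in resting Th2, and 0 higher or lower in stimulated Th1 than in stimulated Th2 or higher in stimulated Th17 than in stimulated Th2. After division by the median ratio, 1 was higher in resting Th1 and 0 in resting Th2 than in naive, 2 higher and 2 lower in stimulated than in resting Th1, 1 higher and 1 lower in stimulated than in resting Th2, 1 higher and 1 lower in stimulated Th17 than in stimulated Th1, and 4 higher and 1 lower in stimulated Th17 than in stimulated Th2. The causes were not tested. No paired analysis was possible because each group holds 1 library, and for the same reason no replicate could be left out. Naive and resting libraries hold few reads per region, so a missing call there is not a missing site.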

Other observations

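With all distinct reads of each library, the 3 intervals held 49 regions in place of 28, 16 at Cd4, 17 at Cd3 and 16 at Zbtb7b, of 62698 in the genome.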
